A study of Saccharomyces cerevisiae with 88 samples.

Results

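The 59 genes described here encode enzymes with which yeast makes its amino acids outside the sulfur pathway, together with GCN4, the activator that controls most of them. They were chosen by name and not by any measured value, and HIS3, LEU2 and MET15 were left out because they are deleted as strain markers. All 59 were found in every table and make up 59 of the 12454 annotated features of the series. The study asked how Pol II transcription and binding of the RNA-binding protein Nab3 follow the loss of glucose in budding yeast. RNA bound by Nab3 or by Rpo21, the catalytic subunit of Pol II, was mapped by kinetic UV cross-linking and cDNA sequencing (χCRAC), and total RNA was measured by RNA-Seq after rRNA depletion.

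Most cultures were of BY4741, a MATa strain with the alleles his3delta_1, leu2delta_0, met15delta_0 and also ura3delta_0, grown at 30 degrees in glucose medium that lacked tryptophan. They were filtered and moved to the same medium without glucose, and a control culture was filtered and moved back into glucose medium. There were 2 Nab3 and 2 Pol II time-courses without glucose, 1 Nab3 and 1 Pol II glucose control, and 1 RNA-Seq time-course. A second strain, HHY168 (MATalpha), carried tor1-1 and fpr1::NAT, which make growth insensitive to rapamycin, with RPL13A-2xFKBP12::TRP as the anchor and, per the study's methods, an FRB tag on Nab3, so that rapamycin carries Nab3 out of the nucleus. Its Pol II libraries came from 2 cultures given rapamycin before the shift and 2 without rapamycin, which received the solvent ethanol. Another strain with the same alleles, the anchor PMA1-2xFKBP12::TRP and untagged Nab3 gave 1 Pol II library at 0 min and 1 at 14 min without glucose, with and without rapamycin. Each time-course was 1 culture sampled over time, so the replicate is the time-course. In these bulk cultures fewer expressing cells and less RNA per cell cannot be told apart.

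Amino acid synthesis in yeast is under general control: when amino acids run short or translation initiation slows, ribosomes bypass the small upstream reading frames of the GCN4 mRNA and make Gcn4, which binds the promoters of genes for many pathways at once. Nitrogen enters through glutamate dehydrogenase (Gdh1, Gdh3) and glutamine synthetase (Gln1), carbon skeletons come from glycolysis and the citric acid cycle, and several steps have a pair of isozymes, often 1 in the cytosol and 1 in mitochondria. Nab3, with Nrd1 and the helicase Sen1, binds nascent RNA and terminates short Pol II transcripts. It recognises UCUUG and related letters.

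The promoters show what many of these genes share. The Gcn4 site TGACTCA, searched on both strands in the 500 bases before the first coding base (R64 genome), was found for 29 of 59 genes (49.2%), against 274 of 6664 nuclear protein-coding genes (4.11%). The shorter core TGACTC, which lies within every TGACTCA, was found for 40 of 59 (67.8%) against 13.0% of all. Windows of neighbouring genes that point away from each other overlap, so 1 site can count for both. Sites of 8 genes whose Pol II values are given below are shown with 11 bases on each side, the site in capitals, on the strand that reads TGACTCA.
ARG1, chrXV:218855-218883, plus strand: tgattttttagTGACTCAtgtcgcatttg
ARO4, chrII:718289-718317, minus strand: ttactgcgaaaTGACTCAacgatgaaatg
HIS7, chrII:716679-716707, plus strand: aagctacgataTGACTCAatttttttttg
LEU9, chrXV:522759-522787, plus strand: gtcgtagtgaaTGACTCAtatttttccat
BAT1, chrVIII:517350-517378, plus strand: ttgccttcttaTGACTCAaaattctattg
ILV5, chrXII:839376-839404, minus strand: atgacctaactTGACTCAatggcttttac
HIS4, chrIII:68515-68543, minus strand: cccatgcacagTGACTCAcgtttttttat
AAT2, chrXII:198212-198240, plus strand: gccgatcacgcTGACTCActcggtccgac
These sites lie 338 (ARG1), 305 (ARO4), 224 (HIS7), 250 (LEU9), 164 (BAT1), 133 (ILV5), 192 (HIS4) and 137 (AAT2) bases before the coding start. ILV5 was the 1 gene with 2 such sites. The letters TGACTCA did not occur in the window of GCN4, SHM2, SER3, SER33, GLN1, GDH1, LYS4 or LYS20. Of these, SHM2 had 4 copies of the core, and SER33, GLN1 and GDH1 had 1 each.

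The Nab3 motif, spelled TCTTG in DNA and searched on the sense strand in the first 300 bases of each annotated transcript, was found for 18 of 59 genes (30.5%), against 25.6% of all protein-coding genes. Those of 3 genes whose Nab3 and Pol II changes are compared below are shown, with the motif in capitals. ILV6 had 2 matches, HIS4 and AAT2 1 each.
HIS4, chrIII:68112-68140, minus strand: aaatcattgcctTCTTGaacaacggagtt
AAT2, chrXII:197924-197952, minus strand: gtaaaccatgggTCTTGccaagtgttaaa
ILV6, chrIII:105297-105325, minus strand: gaaaacagcatgTCTTGaactgtttggtg
ILV6, chrIII:105264-105292, minus strand: acgaacccggtgTCTTGtccagagtctcg
ILV5, SHM2, SER3 and GLN1 had no TCTTG in this window. A match is a run of letters and not a mapped binding site.

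Values are FPKM, fragments scaled by the authors to gene length and library size, and the read numbers recovered from them show the depth. Libraries held 53809 to 524508 reads for Nab3 without glucose and 25776 to 279624 for Pol II without glucose, and the 59 genes took 0.424% to 1.54% of the Pol II reads. The rRNA share was 46.4% at 0 min and 57.5% at 8 min in Pol II time-course 2 and 5.95% to 16.6% in the other Pol II libraries without glucose, so the Pol II counts at 8, 14 and 20 min are also given on other scales, with the genes whose calls those scales end. In the strain check, LEU2 was at 0 in 46 of 49 BY4741 libraries. One culture went against its label. The 7 libraries labelled RPL13A anchor strain, no rapamycin 1, had 1.40 to 20.4 FPKM of LEU2, a median of 27.4 FPKM of the MATa gene MFA1 and at most 4.13 FPKM of URA3. The other 3 cultures had 53.1 to 211 FPKM of LEU2, medians of 0 to 1.87 FPKM of MFA1 and at least 7.26 FPKM of URA3. The first culture is thus closer to BY4741 (median 34.8 FPKM of MFA1) than to its labelled strain. Counts on that strain are therefore given with and without the culture labelled no rapamycin 1. The TRP marker of the anchor strains makes their TRP1 values uncertain.

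Before the shift ILV5 (acetohydroxyacid reductoisomerase, in isoleucine and valine synthesis) had the highest value of the 59 genes in all 3 kinds of library. Its Pol II values at 0 min were 365 and 247 FPKM, its Nab3 values 164 and 59.1 FPKM and its RNA-Seq value 488 FPKM. The order behind it differed between the assays. GCN4 was second for Pol II, with 156 and 101 FPKM, and number 33 for Nab3, with 6.46 and 5.32 FPKM. GLN1, glutamine synthetase, was number 3 for Pol II (103 and 71.1 FPKM), second in total RNA (428 FPKM) and number 46 for Nab3 (2.61 and 2.15 FPKM, or 4 and 3 reads). HOM2, aspartate semialdehyde dehydrogenase, was number 21 for Pol II (32.9 and 28.2 FPKM) and second for Nab3 (31.5 and 41.9 FPKM). With 2 libraries a value the order is a description. Depth limited the low end, and 9 of the 59 genes were at 0 in at least 1 library of both assays.

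Pol II cross-linking fell on 19 of the 41 genes that could be tested and rose on 2 by 20 min without glucose. These 41 genes were above 0 in all 14 Pol II libraries, and 14 of them were called lower at 8 min, 18 at 14 min and 19 at 20 min (limma, adjusted p under 0.05), and 0, 3 and 2 were called higher. The share called lower among all 2890 features tested was 23.2%, 28.0% and 27.7%, and the share called higher 3.15%, 5.64% and 6.33%. At 20 min, 46.3% of the tested genes were thus called lower against 27.7% of all features, and their median log2 change was -1.22 against -0.64 over all features. At 1, 2 and 4 min none was called, as for all features (0%, 0% and 0%), with 7, 6 and 7 genes at an unadjusted p under 0.05. The authors' scaling put the median of all features below 0. With equal library medians 10 genes (24.4%) were called lower and 3 (7.32%) higher at 20 min, against 13.3% and 13.3% of all features. With equal sums over protein-coding features the numbers were 9 (22.0%) and 3, against 13.6% and 11.0%, and 21 and 1 when 20 min was set against 1 and 2 min with both 0 min libraries left out. For that last comparison the share of all features is not given here.

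The calls depended on the scale for part of the genes, and those given below are on the authors' scale unless another is named. On all 3 scales ARG1, ARO4, BAT1, HIS7, ILV5, LEU9, LYS20, SER1 and SHM2 were called lower at 20 min and GDH1 and GLN1 higher. ARO2 was called lower with equal medians and not with protein-coding sums (adjusted p = 0.0552). The calls of ARO1, GCN4, GLT1, HIS4, ILV3, LYS4, SER3, SER33 and TRP2 were lost on both other scales. ILV2 was called higher at 20 min on both of them. At 14 min 6 genes were called lower and 3 higher with equal medians (12.0% and 11.8% of all features), which were ARG1, ARO4, GLT1, HIS7, LEU9 and SER1 and, higher, GDH1, GLN1 and ILV2. At 8 min only LEU9 and LYS20 were called lower with equal medians, 4.88% of the tested genes against 5.36% of all features, and GLN1 and PRO3 were called higher, against 8.24%. With protein-coding sums the calls at 14 min were of the same genes, and at 8 min that of LYS20 was lost as well. Without the time-course as a replicate block GDH1 and SER33 were not called at 20 min (adjusted p = 0.12 and 0.0764), and against 1 and 2 min LYS4, GLT1 and GLN1 were not.

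**Figure D1:**
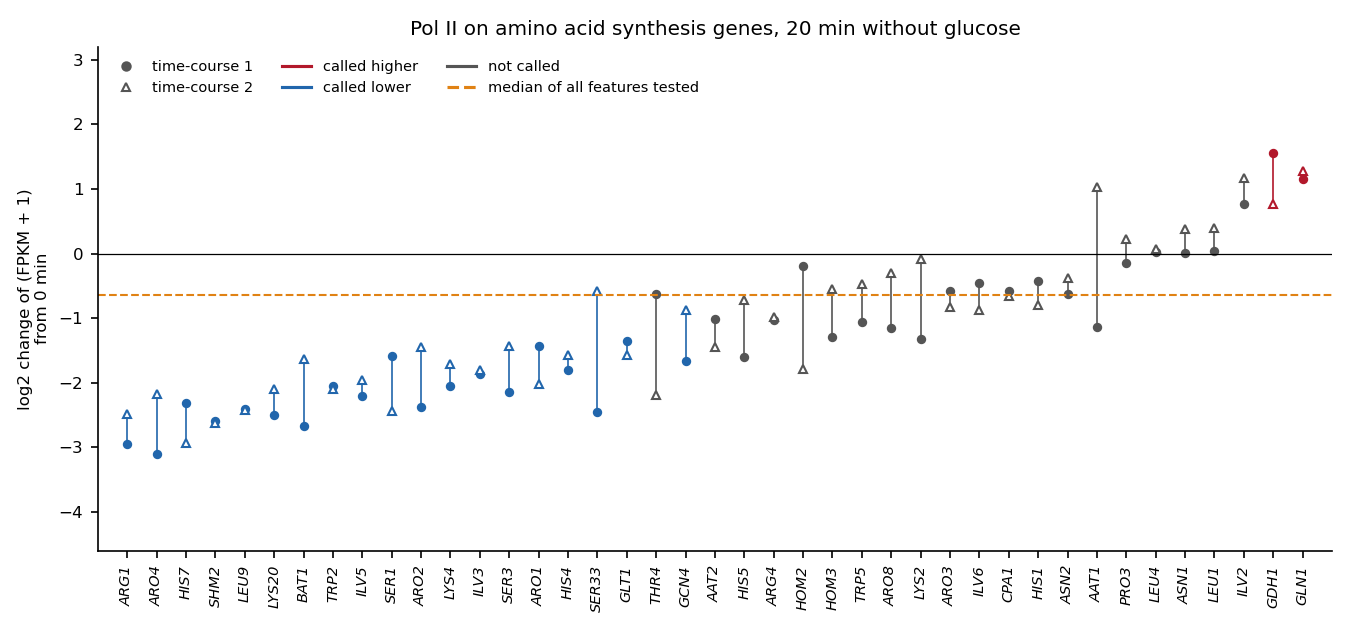
Log2 change of Pol II FPKM + 1 from 0 to 20 min without glucose for the 41 genes tested, in time-course 1 (filled circles) and time-course 2 (open triangles), joined by a line. Of these genes 19 were called lower (blue) and 2 higher (red), and the dashed line is the median of all 2890 features, -0.64.

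The regulator GCN4 was among the genes called lower on the authors' scale. Its Pol II values at 0, 1, 2, 4, 8, 14 and 20 min were 156, 109, 134, 74.3, 49.6, 54.5 and 48.8 FPKM in time-course 1 and 101, 79.3, 90.2, 76.4, 44.3, 44.8 and 54.4 FPKM in time-course 2. All 3 late libraries of each time-course lay below its own libraries of 0, 1 and 2 min (20 min against 0 min: log2 change -1.27, SE 0.36, adjusted p = 0.0192). In the glucose control GCN4 stayed between 53.8 and 67.4 FPKM. At 8 min the change was called too (log2 change -1.40, SE 0.36, adjusted p = 0.0177). Neither call held with equal library medians (adjusted p = 0.19 at 20 min and 0.2 at 8 min).

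Among the branched-chain genes, ILV5 had the highest values and fell. Its Pol II values over the same times were 365, 332, 283, 239, 143, 103 and 78.4 FPKM in time-course 1 and 247, 205, 214, 121, 87.5, 105 and 63.2 FPKM in time-course 2, against 137 to 189 FPKM in the glucose control (20 min: log2 change -2.08, SE 0.37, adjusted p = 0.002). ILV3, dihydroxyacid dehydratase, the next step of the pathway, went from 69.8 and 64.2 to 18.4 and 17.8 FPKM (log2 change -1.83, SE 0.43, adjusted p = 0.00798). ILV2, the catalytic subunit of acetolactate synthase at the head of the same pathway, went the other way. From 24.9 and 13.1 FPKM at 0 min it came to 65.6 and 56.3 at 14 min, where it was called higher (log2 change 1.69, SE 0.44, adjusted p = 0.0137), and to 43.2 and 30.8 at 20 min, where it was not (adjusted p = 0.11). Its regulatory subunit ILV6 was called lower at 14 min (log2 change -1.45, SE 0.45, adjusted p = 0.0292).

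In the leucine branch LEU9 fell and its isozyme LEU4 was not called. LEU9, a minor isopropylmalate synthase, fell from 29.8 and 25.5 to 4.79 and 3.95 FPKM (log2 change -2.42, SE 0.55, adjusted p = 0.00673). LEU4, the main isopropylmalate synthase, had 31.8 and 25.0 FPKM at 0 min and 32.3 and 26.3 at 20 min (log2 change 0.05, SE 0.40, adjusted p = 0.94). BAT1, the mitochondrial branched-chain aminotransferase, fell from 41.6 and 21.5 to 5.72 and 6.28 FPKM (log2 change -2.15, SE 0.57, adjusted p = 0.0139). BAT2, its cytosolic paralog, was at 0 in 3 of the 14 Pol II libraries and was not tested, with 23.7 and 12.0 FPKM before the shift, 7.64 and 2.30 at 14 min and 37.5 and 7.54 at the last time. The difference between the members of a pair was not tested.

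Aromatic synthesis genes were among those with the largest losses. ARO4, one of 2 isozymes for the first step, went from 33.8 and 17.1 FPKM at 0 min to 3.03 and 3.00 at 20 min, or 6 and 3 reads (log2 change -2.64, SE 0.70, adjusted p = 0.0145). Its isozyme ARO3 was not called, with 26.9 and 12.3 and then 17.7 and 6.48 FPKM (log2 change -0.71, SE 0.75, adjusted p = 0.49). The pentafunctional ARO1, the chorismate synthase gene ARO2 and the anthranilate synthase gene TRP2 were called lower at 20 min, with log2 changes of -1.72, -1.91 and -2.08. TRP2 fell from 14.2 and 18.3 to 2.65 and 3.49 FPKM. ARO8, the main aromatic aminotransferase, had 29.8 and 7.42 and then 12.8 and 5.85 FPKM and was not called (adjusted p = 0.39). ARO9, the second aromatic aminotransferase, was at 0 in 5 Pol II libraries, and had 9.55 and 20.0 FPKM at 0 min and 23.3 and 19.9 at 20 min.

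Genes for lysine, histidine and arginine were called lower where they were called at all. LYS20, a homocitrate synthase, fell from 52.0 and 24.1 to 8.38 and 4.88 FPKM (log2 change -2.30, SE 0.42, adjusted p = 0.00234), and LYS4, homoaconitase, from 20.1 and 16.5 to 4.12 and 4.35 FPKM (log2 change -1.88, SE 0.61, adjusted p = 0.0335). LYS21, the isozyme of LYS20, was at 0 in 1 library and had 38.0 and 25.0 FPKM at 0 min and 10.7 and 6.06 at 20 min. HIS7, which joins histidine and purine synthesis, fell from 19.6 and 20.2 to 3.14 and 1.77 FPKM (log2 change -2.63, SE 0.36, adjusted p = 0.000711). Its values at 2 min, 48.3 and 33.1 FPKM, were above those at 0 min in both time-courses. ARG1, argininosuccinate synthetase, fell from 48.3 and 40.4 to 5.37 and 6.38 FPKM, the largest change of the 41 genes (log2 change -2.72, SE 0.46, adjusted p = 0.00162). HIS4, which catalyses several steps of histidine synthesis, went from 52.6 and 30.6 to 14.3 and 9.64 FPKM (log2 change -1.69, SE 0.42, adjusted p = 0.0097).

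Among serine and glycine genes, SHM2 and SER3 had their highest values soon after the shift and were called lower at 20 min. SHM2, the cytosolic serine hydroxymethyltransferase, had 86.1, 291, 264, 139.8, 32.8, 15.6 and 13.5 FPKM at 0, 1, 2, 4, 8, 14 and 20 min in time-course 1 and 71.2, 183, 243, 97.4, 52.3, 29.4 and 10.7 FPKM in time-course 2. Its values at 1 and 2 min were above 0 min in both time-courses, without a call (adjusted p = 0.27 and 0.18), and those at 20 min below it (20 min: log2 change -2.61, SE 0.44, adjusted p = 0.00175). The glucose control, with 35.7, 103, 76.4, 101, 29.4, 22.7 and 21.2 FPKM, also had its highest values at 1 to 4 min. SER3, the phosphoglycerate dehydrogenase gene known to be repressed through transcription of SRG1 across its promoter, went from 46.3 and 30.3 FPKM to 92.1 and 76.6 at 1 min and was down to 9.67 and 10.6 by 20 min (log2 change -1.79, SE 0.46, adjusted p = 0.0124). On the scale of equal library medians its adjusted p was 0.0769. In the control it had 9.10, 22.5 and 14.7 FPKM at these times. The annotated SER3 overlaps SRG1 by 87 bases on the same strand, so reads there count for both. Its paralog SER33 fell from 25.9 and 9.23 to 3.93 and 5.83 FPKM (log2 change -1.52, SE 0.54, adjusted p = 0.0486), a call lost with equal library medians (adjusted p = 0.21) and with 0.1 as pseudocount (adjusted p = 0.0512). SER1, phosphoserine aminotransferase, fell from 34.3 and 45.4 to 10.8 and 7.54 FPKM (log2 change -2.01, SE 0.43, adjusted p = 0.00499).

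Nitrogen assimilation held both genes called higher at 20 min. GDH1, the main NADP-dependent glutamate dehydrogenase, had 27.2, 31.1, 22.9, 16.2, 34.2, 78.5 and 81.8 FPKM over the 7 times in time-course 1 and 20.7, 14.4, 11.1, 11.2, 22.8, 55.2 and 36.1 FPKM in time-course 2. The libraries at 14 and 20 min lay above all earlier ones in each time-course, while the control kept to 10.7 to 16.7 FPKM (20 min: log2 change 1.16, SE 0.37, adjusted p = 0.0297). GLN1 had 103, 279, 284, 147, 173, 218 and 229 FPKM in time-course 1 and 71.1, 245, 270.5, 147, 110.4, 191 and 174 FPKM in time-course 2, with a step up between 0 and 1 min (20 min: log2 change 1.21, SE 0.35, adjusted p = 0.0204). The control had 42.2, 69.2, 56.0, 72.9, 51.5, 80.4 and 58.4 FPKM. Against 1 and 2 min in place of 0 min its change at 20 min was -0.43, so the direction depends on the baseline. GLT1, glutamate synthase, fell from 17.1 and 17.0 to 6.12 and 5.08 FPKM (log2 change -1.46, SE 0.45, adjusted p = 0.0256). ASN1 and ASN2, the asparagine synthetases, were not called. ASN1 had 61.5 and 30.9 FPKM at 0 min and 62.0 and 40.6 at 20 min (log2 change 0.20, SE 0.45, adjusted p = 0.76), and ASN2 41.6 and 25.0 and later 26.6 and 18.9 (log2 change -0.51, SE 0.60, adjusted p = 0.54). AAT2, the cytosolic aspartate aminotransferase, was called lower at 8 min, from 37.4 and 36.4 to 18.6 and 3.47 FPKM (log2 change -2.02, SE 0.60, adjusted p = 0.0292), and not at 20 min. The value of time-course 2 at 8 min is 1 read. Its mitochondrial counterpart AAT1 had 11.9 and 3.32 FPKM at 0 min and 4.85 and 7.86 at 20 min (adjusted p = 0.96), with the 2 time-courses on opposite sides of 0. THR4, threonine synthase, was called lower at 14 min only (log2 change -1.59, SE 0.52, adjusted p = 0.035). HIS1 and CPA1, the small subunit of carbamoyl phosphate synthetase, were called lower at 8 min only (log2 changes -1.49 and -1.40). PRO3 overlaps YAT2 by 847 bases on the same strand, so its Pol II and Nab3 values cannot be told apart from those of YAT2.

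ARO4 and LEU9 were among the 5 largest losses at each of 8, 14 and 20 min. Reads were few: ARO4 had 1 and 4 at 8 min and 1 and 2 at 14 min, and LEU9 3 and 2 and then 5 and 2. TRP2 had 5 and 1 reads at 8 min and ARG1 7 and 1 at 14 min. With no detection filter LEU9, ARO4, AAT2 and TRP2 were not called at 8 min, nor was ARO4 at 14 min. At 8 min the 5 largest were LEU9 (log2 change -2.56, SE 0.55, adjusted p = 0.00882), ARO4 (log2 change -2.22, SE 0.70, adjusted p = 0.0381), AAT2, LYS20 (log2 change -1.97, SE 0.42, adjusted p = 0.0088) and TRP2 (log2 change -1.78, SE 0.54, adjusted p = 0.0313). At 14 min they were ARG1 (log2 change -3.06, SE 0.46, adjusted p = 0.00129), ARO4 (log2 change -2.97, SE 0.70, adjusted p = 0.00874), HIS7 (log2 change -2.65, SE 0.36, adjusted p = 0.000949), LEU9 (log2 change -2.59, SE 0.55, adjusted p = 0.0052) and SER1 (log2 change -2.11, SE 0.43, adjusted p = 0.00436). GDH1 (log2 change 1.43, SE 0.37, adjusted p = 0.0124) and GLN1 (log2 change 1.24, SE 0.35, adjusted p = 0.0193) were called higher at 14 min.

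The 18 genes not tested for Pol II were ALT1, ARG3, ARG8, ARO7, ARO9, BAT2, GDH3, HOM6, ILV1, LYS1, LYS9, LYS12, LYS21, SER2, THR1, TRP1, TRP3 and TRP4. Each was at 0 in at least 1 library. In the glucose control, where all 59 genes were above 0 in each library, the median log2 change of the 59 was between -0.19 and 0.24 at the 6 times, and at 14 and 20 min none was past 2-fold. Past 2-fold higher were 3, 3, 7 and 0 genes at 1, 2, 4 and 8 min, and past 2-fold lower 1, 1, 0 and 1. The control was 1 library a time, and the shares of all features past 2-fold are not given here.

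**Figure D2:**
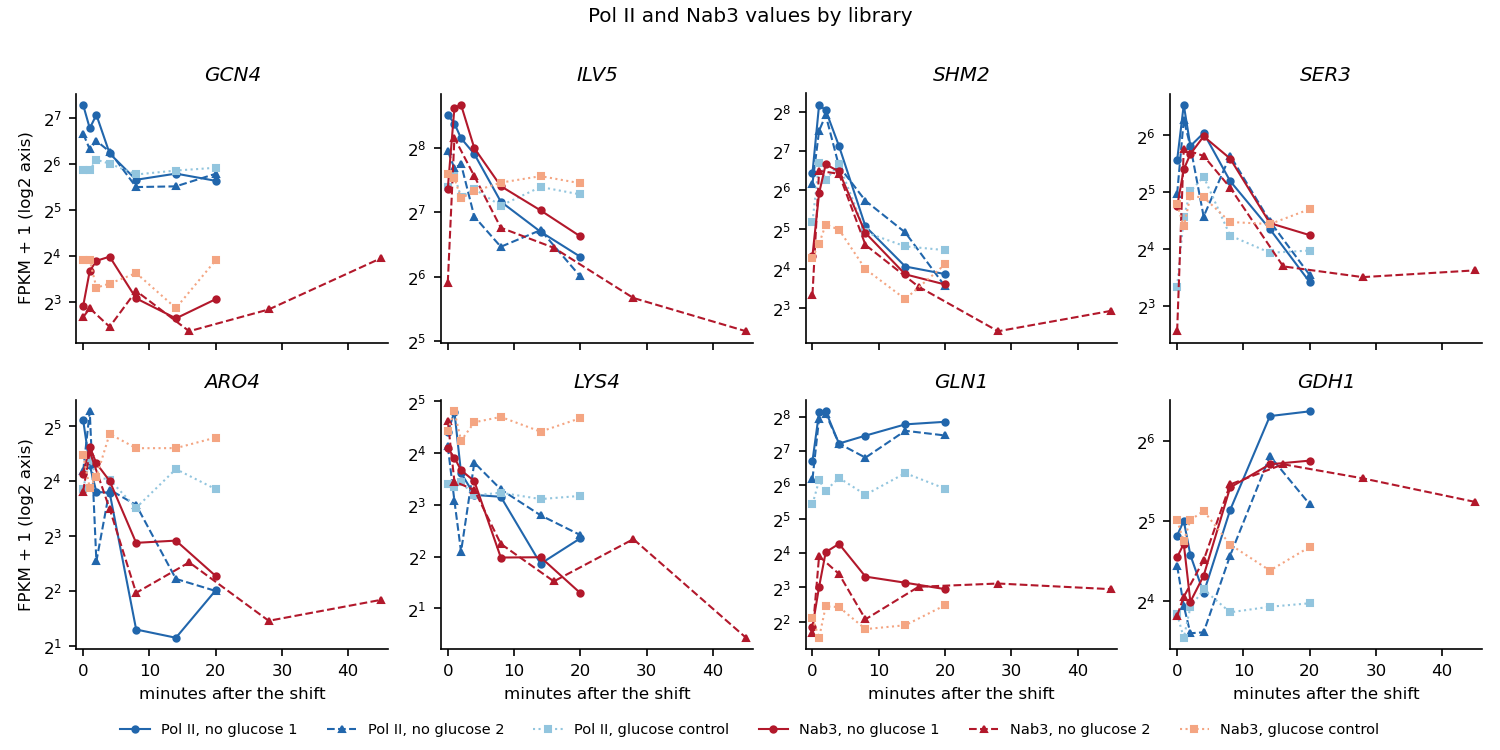
FPKM + 1 on a log2 axis against minutes after the shift for 8 genes, in each Pol II (blue) and Nab3 (red) library without glucose (time-course 1 circles, time-course 2 triangles) and in the glucose controls (squares). Pol II on GDH1 reached 81.8 and 36.1 FPKM at 20 min, while GCN4, ILV5, SHM2, SER3, ARO4 and LYS4 ended below their 0 min values.

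Nab3 cross-linking to these genes moved in both directions. Together the 59 genes took 0.659% and 0.497% of Nab3 reads at 0 min, 0.979% and 0.792% at 1 min, 0.988% and 0.779% at 4 min and 0.573% and 0.460% at 20 and 28 min, and between 0.688% and 0.940% in the glucose control. Of the 41 genes above 0 in all 14 Nab3 libraries, 3 were called higher at 4 min and none lower, or 7.32%, against 1.71% higher and 2.41% lower of all 4561 features. At 8 min 4 were higher and 2 lower (background 6.53% and 11.5%), at 14 min 4 and 5 (10.7% and 15.5%) and at 20 min 5 and 7 (11.0% and 16.0%). The shares called at 20 min, 12.2% higher and 17.1% lower, were close to those of all features. None was called at 1 min, as for all features (0%), with 10 genes at an unadjusted p under 0.05. The median log2 change of the 41 genes was 0.38, 0.32, 0.00, -0.17 and -0.49 at 1, 4, 8, 14 and 20 min, against 0.03, -0.06, -0.09, -0.11 and -0.09 for all features. The 20 min value sets 20 min in time-course 1 beside 28 min in time-course 2, and 14 min sets 14 beside 16 min. Without the time-course as a replicate block, 4 genes were called lower, without ARG1, THR1 and HOM2, and 4 higher, without TRP1, at 20 min and none higher at 4 min. With equal library medians 10 were called higher at 4 min. The shares of all features under these 2 settings are not given here, so these counts have no background.

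The genes called higher at 4 min were SHM2, SER3 and GLN1. SHM2 had 19.0, 60.0, 101, 88.6, 29.1, 13.4 and 11.1 FPKM at 0, 1, 2, 4, 8, 14 and 20 min in time-course 1 and 9.06, 89.5, 85.0, 23.3, 10.6, 4.26 and 6.55 FPKM at 0, 1, 4, 8, 16, 28 and 45 min in time-course 2 (4 min: log2 change 2.63, SE 0.46, adjusted p = 0.0212). In the glucose control it had 18.3, 23.9, 33.9, 30.9, 14.8, 8.32 and 16.2 FPKM, with its highest value at 2 min. SER3 went from 25.9 and 4.85 to 62.3 and 48.8 FPKM at 4 min (log2 change 2.16, SE 0.53, adjusted p = 0.048) and was still higher at 8 min, with 47.3 and 32.8 FPKM (log2 change 1.69, SE 0.53, adjusted p = 0.0473). The control had 26.6 FPKM of SER3 at 0 min and 29.1 at 4 min. SER33 had 6.92 and 5.06 FPKM at 0 min and 17.9 and 14.3 at 4 min and was not called (log2 change 1.30, SE 0.38, adjusted p = 0.0649). GLN1 rose from 2.61 and 2.15 to 18.4 and 9.53 FPKM at 4 min (log2 change 2.08, SE 0.50, adjusted p = 0.0466). At 20 min SHM2, SER3 and GLN1 were not called, with log2 changes of -0.83, 0.22 and 1.28.

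ILV5 had its highest Nab3 values soon after the shift. It had 164, 394, 407, 255, 169, 129.8 and 97.9 FPKM in time-course 1 and 59.1, 285, 188, 108, 86.5, 50.0 and 34.6 FPKM in time-course 2 at the times given for SHM2. Both time-courses were above 0 min at 1 and 4 min, by different amounts, and the change was called at neither time (4 min: log2 change 1.14, SE 0.39, adjusted p = 0.0962). The control had 192, 184, 148, 159.8, 175, 188 and 174 FPKM. GCN4 was low throughout, with 6.46, 11.7, 13.8, 14.8, 7.40, 5.20 and 7.30 FPKM in time-course 1 and 5.32, 6.23, 4.46, 8.40, 4.11, 6.10 and 14.5 FPKM in time-course 2, or 4 to 33 reads a library, and was not called at 20 min (log2 change 0.16, SE 0.45, adjusted p = 0.82).

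The genes called higher at 20 min were TRP4, ALT1, HOM6, GDH1 and TRP1. GDH1 rose from 22.4 and 13.1 to 53.0 and 45.4 FPKM (log2 change 1.46, SE 0.39, adjusted p = 0.0186) and was the 1 gene called higher for both Nab3 and Pol II at that time. ALT1, the mitochondrial alanine aminotransferase, rose from 15.4 and 12.1 to 45.9 and 43.0 FPKM (log2 change 1.63, SE 0.45, adjusted p = 0.0222). HOM6, homoserine dehydrogenase, rose from 3.91 and 2.57 to 11.1 and 10.2 FPKM (log2 change 1.47, SE 0.39, adjusted p = 0.0168), and was called at 8 min (log2 change 1.50, SE 0.39, adjusted p = 0.0244) and 14 min as well. Both tryptophan genes lie opposite other annotated features. TRP4, anthranilate phosphoribosyltransferase, rose from 2.99 and 2.46 to 13.0 and 8.78 FPKM (log2 change 1.66, SE 0.41, adjusted p = 0.0129), and TRP1, the next enzyme of the pathway, from 23.7 and 14.0 to 64.2 and 37.5 FPKM (log2 change 1.38, SE 0.46, adjusted p = 0.0451). At 0 min HOM6 had only 5 and 3 reads and TRP4 4 and 3. At 20 min, or 28 min in time-course 2, they had 22 and 31 and 27 and 28. GDH3, the isozyme of GDH1, had 14.2 and 1.80 FPKM at 0 min and 11.7 and 11.0 at 20 min, with the time-courses on opposite sides of 0 (adjusted p = 0.35).

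The genes called lower at 20 min were LYS4, ARO7, ARO4, ARG1, THR1, LEU9 and HOM2. LYS4 had the largest loss, from 16.1 and 23.7 to 1.46 and 4.06 FPKM (log2 change -2.54, SE 0.45, adjusted p = 0.00299), and had been lower since 8 min. ARO7, chorismate mutase, fell from 12.9 and 11.6 to 3.78 and 0.492 FPKM, or 5 and 1 reads (log2 change -2.31, SE 0.53, adjusted p = 0.00994), and ARO4 from 16.6 and 13.0 to 3.84 and 1.75 FPKM (log2 change -2.11, SE 0.38, adjusted p = 0.00309). LYS4, ARO4, ARG1 and LEU9 were also called lower for Pol II. ARG1 fell from 18.3 and 11.8 to 6.93 and 1.85 FPKM (log2 change -1.72, SE 0.49, adjusted p = 0.0248). THR1, homoserine kinase, fell from 22.9 and 10.8 to 7.93 and 2.06 FPKM (log2 change -1.68, SE 0.40, adjusted p = 0.0114). LEU9 went from 28.6 and 18.5 to 9.99 and 7.28 FPKM (log2 change -1.33, SE 0.39, adjusted p = 0.0285) and LEU4 from 39.8 and 22.1 to 41.3 and 45.2 FPKM without a call (log2 change 0.53, SE 0.45, adjusted p = 0.41). HOM2 fell from 31.5 and 41.9 to 15.2 and 12.6 FPKM (log2 change -1.33, SE 0.44, adjusted p = 0.0443). At 14 min HIS5, histidinol-phosphate aminotransferase (log2 change -2.27, SE 0.60, adjusted p = 0.0194), and LYS21 (log2 change -1.73, SE 0.56, adjusted p = 0.0437) were called lower, and at 20 min they were not (adjusted p = 0.0795 and 0.0701). The other genes called lower at 14 min were LYS4 (log2 change -2.61, SE 0.45, adjusted p = 0.00367), HOM2 (log2 change -1.81, SE 0.44, adjusted p = 0.0138) and ARO4 (log2 change -1.25, SE 0.38, adjusted p = 0.0316), and at 8 min they were LYS4 (log2 change -2.25, SE 0.45, adjusted p = 0.00977) and ARO4 (log2 change -1.55, SE 0.38, adjusted p = 0.0205).

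Of the remaining pairs, LYS20 and LYS21 had Nab3 log2 changes of -0.65 and -1.50 at 20 min, ASN1 and ASN2 of -0.41 and -0.95, and AAT1 and AAT2 of -0.93 and 0.41, and none of them was called. ARO8 had 22.6 and 20.4 FPKM at 0 min and 18.7 and 11.4 at 20 min (adjusted p = 0.52). ARO3, ARO9, BAT1 and BAT2 were among the 18 genes at 0 in at least 1 Nab3 library, with ARG3, ARG8, ARO2, HOM3, LEU1, LYS1, LYS2, LYS9, LYS12, SER1, SER2, TRP2, TRP3 and TRP5. BAT1 had 20.9 and 19.7 FPKM at 0 min and 11.1 and 20.4 at 20 min, and BAT2 2.24 and 2.46 and later 1.45 and 3.76. ARO3 had 0 and 3.38 and later 9.44 and 3.88 FPKM, and ARO9 3.74 and 4.11 and later 11.7 and 11.8.

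**Figure D3:**
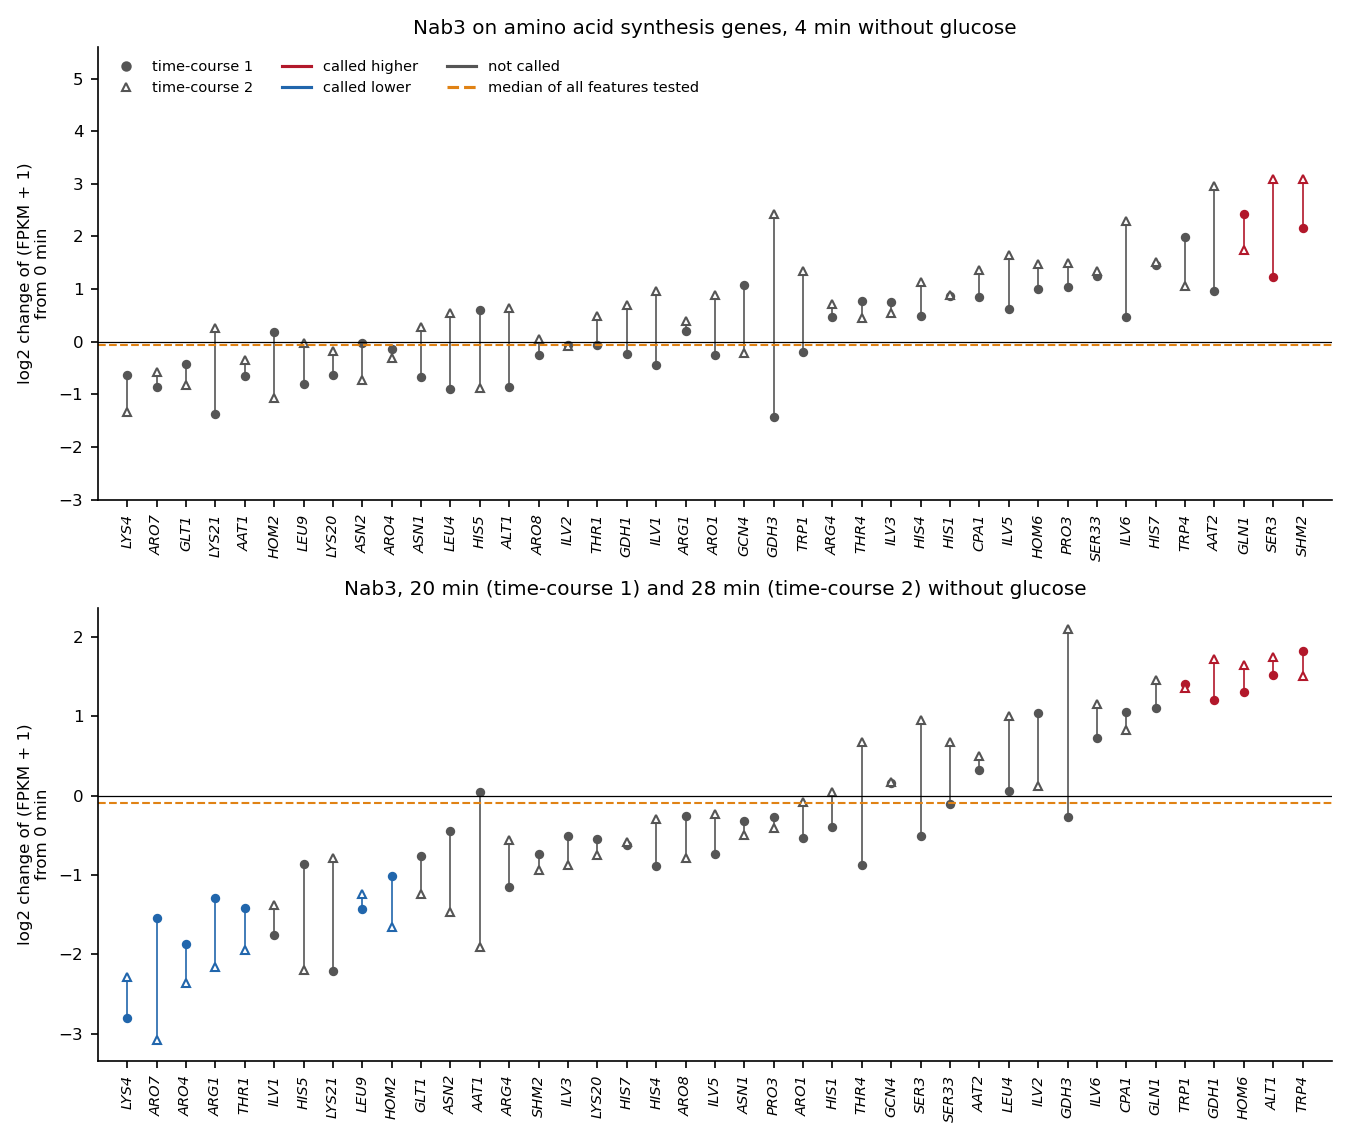
Log2 change of Nab3 FPKM + 1 from 0 min for the 41 genes tested, at 4 min (top) and at 20 min in time-course 1 beside 28 min in time-course 2 (bottom), with the symbols of the Pol II plot. At 4 min SHM2, SER3 and GLN1 were called higher (red), and at 20 min 5 genes were called higher and 7 lower (blue).

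Whether Nab3 and Pol II changed differently on the same gene was tested as an interaction over both assays, for the 32 genes above 0 in every library of both at shared times. Here 16 and 28 min of Nab3 time-course 2 were taken as 14 and 20 min, the times sampled in both Pol II time-courses. Nab3 changed more towards gain than Pol II for 1, 6, 2 and 1 genes at 4, 8, 14 and 20 min, against 3.85%, 11.7%, 7.54% and 5.28% of 1818 features. None was called in the other direction. At 8 min, 6 of 32 genes is 18.8% against the background of 11.7%, but the median difference of the 32 genes, 0.82, was below that of all features, 0.94. AAT2 had the largest difference at 8 min, with Nab3 values of 6.07 and 0.832 FPKM at 0 min and 8.11 and 4.65 at 8 min, and Pol II values of 37.4 and 36.4 and then 18.6 and 3.47 (log2 difference 3.01, SE 0.95, adjusted p = 0.0484). In time-course 2 its Nab3 value at 0 min and its Pol II value at 8 min are 1 read each, the latter in the library with 57.5% rRNA. HIS4 went from 30.9 and 20.1 to 54.8 and 43.5 FPKM for Nab3 while Pol II went from 52.6 and 30.6 to 18.8 and 8.73 (log2 difference 2.51, SE 0.51, adjusted p = 0.00994). For ILV5 Nab3 was at 169 and 108 FPKM and Pol II at 143 and 87.5 at 8 min (log2 difference 1.86, SE 0.49, adjusted p = 0.0258), and its difference was also called at 4 min (log2 difference 1.96, SE 0.49, adjusted p = 0.0405). LEU9 (log2 difference 2.12, SE 0.65, adjusted p = 0.0444), HIS1 (log2 difference 1.99, SE 0.55, adjusted p = 0.0311) and GCN4 (log2 difference 1.78, SE 0.54, adjusted p = 0.0428) were the other calls at that time. At 14 min the calls were ILV6, with Nab3 values of 13.5 and 5.30 and then 21.3 and 18.9 FPKM against 28.5 and 21.6 and then 5.93 and 11.9 for Pol II (log2 difference 2.59, SE 0.74, adjusted p = 0.0423), and HIS7 (log2 difference 2.35, SE 0.47, adjusted p = 0.00861), and at 20 min HIS7 (log2 difference 2.02, SE 0.47, adjusted p = 0.0265). HIS7 had few reads. For Nab3 these were 5 and 2 at 0 min, 4 and 2 at 14 and 16 min and 4 and 2 at 20 and 28 min. For Pol II they were 34 and 12 at 0 min, 3 and 1 at 14 min and 7 and 2 at 20 min. The calls at 8 min rest on the scale: with equal library medians, with equal protein-coding sums or without the time-course as a replicate block, 0 genes were called at 8 min.

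The study's own test compares whole profiles by a Gaussian process, as a Bayes factor for different over equal curves without glucose and in the glucose control. A factor of 10 or more was reached for Pol II by 32 of 41 genes, against 73.6% of 2881 features, and for Nab3 by 28 of 41, against 66.0% of 4313. Both shares were close to the background. These factors were computed on log2 ratios to 0 min, and on the linear ratios of the study's methods 29 genes reached 10 for Pol II (69.9% of features) and 29 for Nab3 (67.6%). The largest Pol II factors were those of TRP2, ILV3 and GCN4 and the largest Nab3 factors those of LYS4, ILV5 and SER33. With 1 control culture for each assay this describes these cultures.

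Total RNA of most of the 59 genes was past 2-fold lower at 30 and 40 min. The RNA-Seq time-course had 1 library at each time, so its differences have no replicate check. At 14 min 8 of 59 genes were past 2-fold lower and 0 higher, against 9.84% and 8.63% of 8987 features above 0 in all libraries. At 30 min 39 were lower and 1 higher (background 19.0% and 15.4%), and at 40 min 43 and 3 (23.9% and 15.4%). The median log2 change was -0.55, -1.36 and -1.67 at these times, against -0.24, -0.15 and -0.23 over all features. The 5 largest losses at 40 min were HIS1, ATP phosphoribosyltransferase (309.7 to 30.6 FPKM), SHM2 (282 to 33.2), ILV5 (488 to 74.8), the threonine deaminase gene ILV1 (68.8 to 10.3) and ARG1 (237 to 40.2). ARO9 went from 20.3 to 162 FPKM, BAT2 from 66.6 to 167 and GDH3 from 2.54 to 6.27, and these 3 were the genes past 2-fold higher. ALT1 (0.73) and CPA1 (0.46) had the next values.

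GCN4 RNA had 230.1, 184, 181, 147, 202, 147 and 162 FPKM at 0, 1, 4, 8, 14, 30 and 40 min, a log2 change of -0.50 at 40 min. HOM2 was past 2-fold higher at 1 min (94.8 to 222 FPKM), and had 236 FPKM at 8 min and 119 at 40 min. HOM2 shares 347 bases on the same strand with an annotated CUT. THR1 was the 1 gene past 2-fold lower at 8 min, from 155 to 72.2 FPKM. In the isozyme pairs the log2 changes at 40 min were -1.84 for BAT1 and 1.31 for BAT2, -0.42 for LEU4 and -2.18 for LEU9, -0.19 for GDH1 and 1.04 for GDH3, and -1.95 for ARO8 and 2.94 for ARO9. LYS20 and LYS21 (-2.00 and -2.02), ASN1 and ASN2 (-1.41 and -1.48), SER3 and SER33 (-1.41 and -1.87), ARO3 and ARO4 (-1.14 and -0.86) and AAT1 and AAT2 (-1.16 and -1.82) had smaller gaps. The 29 genes with TGACTCA had a median of -1.65 at 40 min and the 30 without it -1.82, and for Pol II at 20 min the medians were -1.16 over 25 tested genes and -1.36 over 16. All 3 RNAs past 2-fold higher at 40 min and both genes called higher for Pol II at 20 min on the authors' scale were without it. The latter, GDH1 and GLN1, each had 1 copy of the shorter core TGACTC, and ARO9, BAT2 and GDH3 had 0. PRO3, called higher for Pol II at 8 min with equal library medians, had TGACTCA. So had LEU1, among the genes past 2-fold higher in both conditions of the PMA1 anchor strain.

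**Figure D4:**
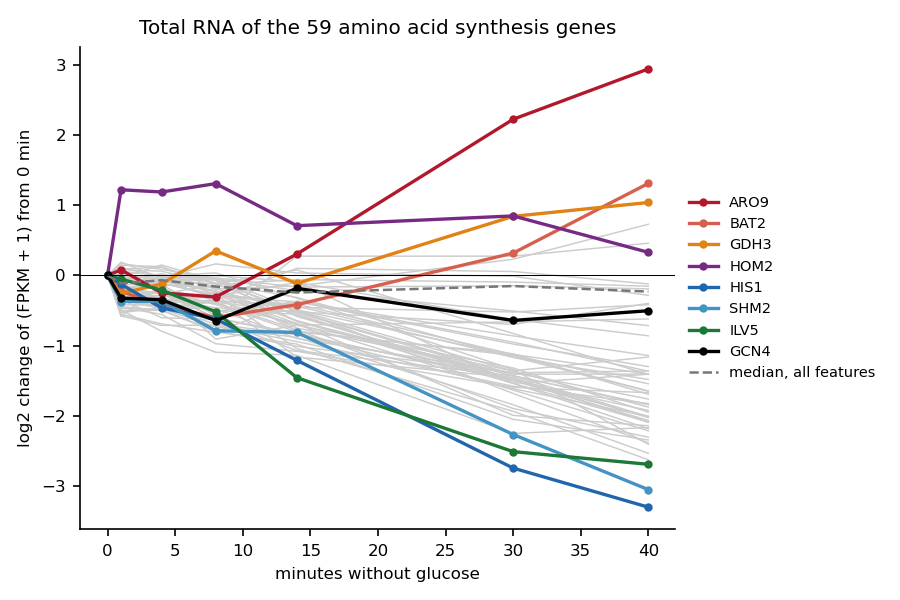
Log2 change of RNA-Seq FPKM + 1 from 0 min against minutes without glucose for the 59 genes, 1 library a time, with 8 genes in colour, the others in grey and the median of all 8987 features dashed. At 40 min 43 genes were past 2-fold lower, and ARO9, BAT2 and GDH3 past 2-fold higher.

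In the RPL13A anchor strain Pol II fell on most of the genes that could be tested. The culture means of the early window (1 and 2 min) and the late window (14, 20 and 40 min, or the nearest times sampled) were compared. The culture labelled no rapamycin 1 had late libraries at 18 and 51 min only, of 111397 and 80967 reads. Its 2 min library held 47401 reads, with 48.2% of features at 0. Without rapamycin 29 of 41 genes were called lower and 2 higher late against early, against 35.0% and 6.85% of 3793 features, and with rapamycin 24 and 0, against 16.8% and 3.66%. The median log2 change of the 41 genes was -1.67 without and -1.36 with rapamycin, against -0.60 and -0.28 over all features. Without the culture labelled no rapamycin 1, 28 genes were called lower (31.8% of features) and 2 higher (7.94%) in the remaining culture without rapamycin. Of the 29 genes ARG4, CPA1 and GCN4 were then not called. Without either rapamycin culture none was called in the other. With equal library medians 18 genes (43.9%) were called lower without rapamycin, against 15.8% of features, and 16 (39.0%) with it, against 9.25%. The calls without rapamycin then lost were those of ARG4, CPA1, GCN4, HIS1, HOM2, ILV6, LYS4, LYS20, LYS21, SER33 and TRP5, and with rapamycin those of ARG4, ARO1, ASN2, GLT1, HOM2, LYS20, LYS21 and SER33.

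SHM2 had the largest loss without rapamycin, with late minus early log2 differences of -4.87 and -3.97 in the cultures labelled no rapamycin 1 and 2 and -3.37 and -2.41 in the rapamycin cultures (with rapamycin: log2 change -2.89, SE 0.37, adjusted p = 0.00566), and without it the fit gave log2 change -4.42, SE 0.37, adjusted p = 0.00144. ARO4 had -2.07 and -3.60 in the cultures labelled no rapamycin 1 and 2 and -3.81 and -2.22 in the rapamycin cultures (without rapamycin: log2 change -2.83, SE 0.49, adjusted p = 0.00403), and the fit with rapamycin gave log2 change -3.02, SE 0.49, adjusted p = 0.0073, the largest loss there. SER3 had -2.65 and -3.16 in the cultures labelled no rapamycin 1 and 2 and -1.23 and -1.86 in the rapamycin cultures (without rapamycin: log2 change -2.90, SE 0.32, adjusted p = 0.00144). ILV3 was called lower without rapamycin (log2 change -2.73, SE 0.31, adjusted p = 0.00144) and with it (-2.06), and so was HIS4 (-1.98 and -2.15). With rapamycin BAT1 (log2 change -2.17, SE 0.30, adjusted p = 0.00566) and THR4 (log2 change -2.16, SE 0.33, adjusted p = 0.00627) were among the 5 largest losses, and both were called lower without it too. GLN1 was called lower here without rapamycin (log2 change -2.80, SE 0.49, adjusted p = 0.00401) and with it (log2 change -2.45, SE 0.49, adjusted p = 0.0135), with differences of -1.72 and -3.88 in the cultures labelled no rapamycin 1 and 2 and -2.42 and -2.47 in the rapamycin cultures. In BY4741, 20 min against 1 and 2 min gave GLN1 a log2 change of -0.43. BAT2 and ALT1 were the genes called higher without rapamycin. BAT2 had 1.13 and 1.42 in the cultures labelled no rapamycin 1 and 2 and 1.30 and 0.76 in the rapamycin cultures (log2 change 1.28, SE 0.31, adjusted p = 0.0137) and ALT1 0.96 and 1.19 in the cultures labelled no rapamycin 1 and 2 and 1.42 and 0.50 in the rapamycin cultures (log2 change 1.08, SE 0.33, adjusted p = 0.0351). With rapamycin neither was called on the authors' scale (adjusted p = 0.052 and 0.0802), and both were with equal library medians.

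GCN4 was called lower without rapamycin (log2 change -1.67, SE 0.45, adjusted p = 0.0204) and not with it (log2 change -0.76, SE 0.45, adjusted p = 0.26), but the cultures with the expected strain markers gave -0.73 (no rapamycin 2), -0.79 and -0.73, and the culture labelled no rapamycin 1 gave -2.61. ILV5 had -2.87 and -1.95 in the cultures labelled no rapamycin 1 and 2 and -1.76 and -2.01 in the rapamycin cultures. The remaining genes called lower without rapamycin were THR1, HOM3, LYS2, GLT1, SER1, ARO1, ASN2, ARO8, AAT2, SER33, LYS20, LYS21, ILV6, HOM2, LYS4, ARG4, TRP5, CPA1 and HIS1. Of these, AAT2, ILV6, LYS4 and CPA1 were not called with rapamycin.

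**Figure D5:**
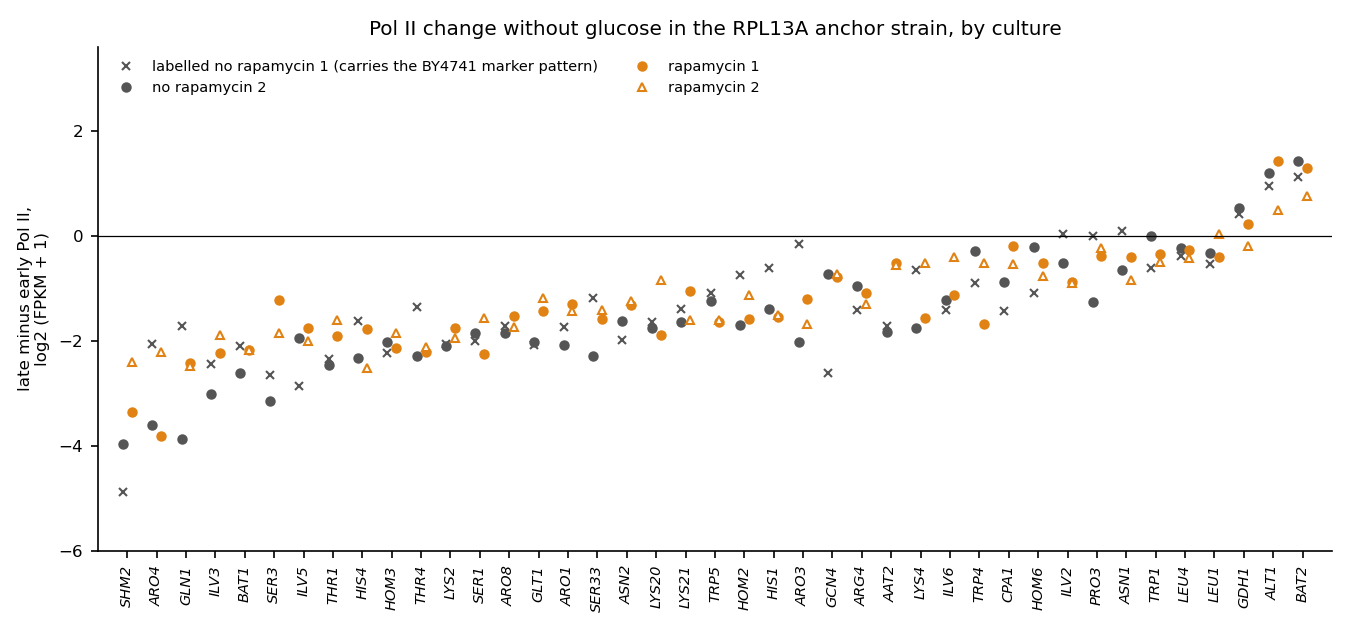
Late minus early Pol II difference (log2 of FPKM + 1) in each culture of the RPL13A anchor strain for the 41 genes tested, without rapamycin (grey; crosses mark the culture closer to BY4741 in its strain markers) and with rapamycin (orange). Over the 4 cultures SHM2 has the lowest mean and BAT2 the highest.

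No difference of this response with rapamycin was called, but these fits would miss many changes. In simulated data a log2 change of 2 was called for 28.4% of changed features in the difference of responses. For rapamycin against no rapamycin it was called for 18.6% early and 36.9% late. The difference of the late minus early changes was called for 0 of 41 genes and 0% of all features by limma, with 3 genes at an unadjusted p under 0.05 (smallest adjusted p = 0.47). Rapamycin against no rapamycin early was called for 0 genes, against 0.606% of features higher, with 7 genes at an unadjusted p under 0.05. Late it was called for 1 gene, AAT2, higher with rapamycin (log2 change 1.88, SE 0.41, adjusted p = 0.047), against 1.58% of features, and with equal library medians 0 were called. AAT2 had late culture means of 2.20 and 3.01 without rapamycin and 4.55 and 4.42 with it on the log2 scale. Without the culture labelled no rapamycin 1, 3 genes were called higher late and 0 early. Without no rapamycin 2, the culture with the expected markers, 23 and 8 were called higher late and early, and in that fit the strain pattern and the drug cannot be told apart. Without either rapamycin culture no gene was called late. Median differences over the 41 genes were 0.40 early and 0.77 late, against 0.12 and 0.47 over all features. Leaving out the culture labelled no rapamycin 1 gave 0.22 and 0.54 for the 41 genes. Leaving out no rapamycin 2 gave 0.72 and 0.97, and equal library medians gave 0.099 and 0.18. The shares of all features called are not given for the fits with a culture left out, so those counts have no background.

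In the PMA1 anchor strain with untagged Nab3 each condition was 1 library, so its differences have no replicate check. After 14 min without glucose Pol II on 30 of 59 genes was past 2-fold lower and on 4 higher without rapamycin, against 31.6% and 17.4% of 9949 features, and 28 and 6 with rapamycin, against 33.5% and 16.7%. SHM2 went from 134 to 13.6 FPKM without rapamycin and from 96.9 to 10.9 FPKM with it. ARO4 went from 106 to 17.6 FPKM without rapamycin and from 79.2 to 10.5 FPKM with it, and GCN4 from 316 to 92.3 FPKM without rapamycin and from 326 to 140.1 FPKM with it. The 5 lowest without rapamycin were LYS9, ARG3, SHM2, HIS7 and ARO4. The genes past 2-fold higher in both conditions were GDH3, GDH1, ALT1 and LEU1. GDH1 went from 101 to 317 FPKM without rapamycin and from 142 to 365 FPKM with it, and GDH3 from 2.10 to 8.93 FPKM without rapamycin and from 1.82 to 16.0 FPKM with it. Rapamycin against no rapamycin in this strain was past 2-fold lower for 4 genes at 0 min and 4 at 14 min, and higher for 0 and 1, against 3.32%, 5.91%, 2.33% and 3.49% of features. The gene higher at 14 min was SER3, with 23.8 FPKM without rapamycin and 78.1 FPKM with it (log2 difference 1.67). Those lower were ARG1, ARG3, ARG4 and LYS9 at 0 min and ARG1, ARG3, ARO9 and LYS20 at 14 min.

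Nab3 on these genes was also measured in growing cells after cross-linking in a Megatron UV source, in 2 libraries, and in a Vari-X-linker library of 10350 reads. The 59 genes took 0.815% (95% exact interval 0.799% to 0.830%) and 0.677% (0.660% to 0.693%) of Megatron reads and 0.425% (0.309% to 0.570%) of the Vari-X-linker reads, where intervals cover counting error only. The deeper Nab3 time-course libraries at 0 min, per the study's methods also cross-linked in the Vari-X-linker, had 0.659% and 0.497%. That of the glucose control had 0.722%. ILV5 was again the highest, with 272 and 196 FPKM in the Megatron libraries, followed by HIS1 with 137 and 106. The Vari-X-linker library held 44 reads of the 59 genes, of which ILV5 and TRP1 had 7 each.

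Other genes of the pathway, from a list of 14 enzymes and 16 regulators chosen for their function, were mostly too low to test. For Pol II at 20 min 6 enzymes and 7 regulators were tested. None of the enzymes was called, and of the regulators 3 were called lower, against 27.7% of all features: GCN1 (-1.66), which activates the kinase Gcn2, GCN20 (-1.38), its partner, and BAS1 (-1.78), an activator of histidine and purine genes. None of the 3 was called with equal library medians. In the anchor strain 5 of 7 enzymes and 5 of 11 regulators were called lower late against early without rapamycin (35.0% of all features), and 3 and 2 with it (16.8%). With equal library medians 3 and 1 were called lower without rapamycin (15.8%) and 2 and 0 with it (9.25%).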

How the data were processed

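The deposited tables held FPKM, which the authors made from reads aligned with Novoalign (2.0.4 in the submitters' processing notes) to the R64 yeast genome and counted per annotated feature, and scaled to common sums within most tables. Recovered reads were whole for nearly all low values and were used for depth only. Of 88 samples 86 libraries were used, 3 columns that match no sample were not used, and 5 lines matching no feature were dropped. log2(FPKM + 1) was fitted with limma 3.58.1 (R 4.3.3) over all features above 0 in every library of a comparison, with each time-course or culture as a replicate block. The comparisons of rapamycin with no rapamycin within the early or the late window used culture means and had no block. Benjamini-Hochberg adjusted p under 0.05 over all these features is a call, and fold changes of low genes are understated. The p-values rest on the spread that remains after the fitted terms, pooled over the times or windows of a fit and moderated by limma over features. In the fit of 1 assay this spread comes from 2 time-courses. In the anchor strain it comes from the cultures with and without rapamycin together. Times from the labels were binned: 16, 28 and 45 min in Nab3 time-course 2 with 14, 20 and 40 min, and 10, 18, 28 and 51 min in the anchor strain with 8, 14, 20 and 40 min. Profiles, as log2 ratios to 0 min where the study used linear ratios, were compared by a Gaussian process with the study's other settings (length scale 1 min, amplitude 50% of the variance, Bayes factor 10) in Python 3.11.15. The limma fits were tried on simulated data with known changes. A log2 change of 2 was called for 53.0% of changed features for Pol II and 50.7% for Nab3 at 20 min. It was called for 35.3% in Nab3 against Pol II at 8 min and for 43.5% late against early without rapamycin. A missing call is therefore no evidence that a gene did not change.

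All 59 members and the lists of other genes were chosen with earlier results of these data known. Named with values are GCN4, ILV5, the isozyme pairs and the 5 largest changes each way among called genes (past 2-fold for single libraries). Deviations of libraries of the same culture from their time means correlated at 0.19 to 0.44 for Nab3 and 0.05 to 0.18 for Pol II, and the pairing comes from sampling 1 culture over time. Anchor culture numbers did not pair cultures (0.03). Alternatives were a mean FPKM of at least 10, no filter on detection, equal library medians, 0.1 in place of 1 as pseudocount, fits with or without the block and each culture left out. Equal protein-coding sums, and 20 min against 1 and 2 min, were chosen after seeing the data. Sequences are from the RefSeq R64 genome, whose coding coordinates matched the deposited annotation for 5981 of 5988 genes found by systematic name, all 59 members among them. The Nab3 result of 1 list of other pathway genes is not reported here.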

Additional observations from a re-analysis of the deposited data

Results flagged for a closer look

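Nab3 and Pol II changes on the same gene differed by the test of the difference itself (limma, Nab3 change minus Pol II change, log2, 2 time-courses each) for 10 combinations of gene and time. At 4 min this was ILV5 (1.96). At 8 min these were AAT2 (3.01), HIS4 (2.51), LEU9 (2.12), HIS1 (1.99), ILV5 (1.86) and GCN4 (1.78). At 14 min (16 min in Nab3 time-course 2) these were ILV6 (2.59) and HIS7 (2.35), and at 20 min (28 min in that time-course) HIS7 (2.02). Nab3 was on the side of gain in each, and so was the median of all 1818 features, which lay between 0.74 and 0.94 at these times. Called towards gain at 4, 8, 14 and 20 min were 1, 6, 2 and 1 of 32 genes, beside 70, 213, 137 and 96 of the 1818 features. Only at 8 min was the share of the genes above that of all features. With equal library medians, equal protein-coding sums or no replicate block, 0 genes were called at 8 min. The part of rRNA share, scaling and depth in these differences was not tested beyond the alternatives given for 8 min.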

How the results depend on the processing

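Of 108 recomputed counts 66 stayed within 1.5 times the reported one, and of 542 recomputed values of named genes 358 kept direction and call, 84 kept direction and lost the call, 1 gained a call, 5 changed sign and 94 came from 1 time-course with no test. GLN1 for Pol II at 20 min, called higher, came to -0.43 (adjusted p = 0.32) against 1 and 2 min. AAT1 and ASN2, not called for Pol II at 20 min under any of these settings, came to 0.54 and 0.090 with equal medians and to 0.43 and 0.032 with protein-coding sums. The 19 genes lower for Pol II at 20 min became 11 with no detection filter, 10 with equal library medians and 9 with equal protein-coding sums. The 2 higher became 1 without the replicate block and 1 against 1 and 2 min. For Nab3 at 20 min the 7 lower became 4 with no filter and 4 without the replicate block, and the 5 higher became 3 with no filter and 3 at a mean of at least 10 FPKM. The 3 higher for Nab3 at 4 min became 1 with a pseudocount of 0.1, 0 with no filter, 10 with equal medians, 5 with protein-coding sums and 0 without the replicate block. The 6 differences between Nab3 and Pol II at 8 min became 3, 1, 0, 0 and 0 in the same order. The 28 Nab3 profiles became 18 at a mean of at least 10 FPKM. In the anchor strain the 29 and 24 genes lower late became 0 and 0 with no filter, and the 29 became 18 with equal medians. Leaving out 1 culture gave 25 to 28 for the former and 0 to 28 for the latter, 0 when either rapamycin culture was left out. The 2 higher became 0 with no filter, 1 without the replicate block and 1 to 2 with 1 culture left out. The 1 gene higher late with rapamycin became 0 with a pseudocount of 0.1, no filter, a mean of at least 10 FPKM, equal medians or protein-coding sums, 4 with the culture number as a replicate block, and 0 to 23 with 1 culture left out. Early the range was 0 to 8, and for the difference of responses 0 to 2. With no filter more features with zeros enter the fit, and the cause of the other changes was not tested. Counts in this paragraph stand without the shares of all features, which also differ between settings. A fit that leaves out 1 culture assumes that the lone culture varies like the others. Leaving out 1 of 2 time-courses leaves no test, and the named genes with a call kept their sign in each time-course alone (13 for Pol II and 11 for Nab3 at 20 min, 3 for Nab3 at 4 min). Of those without a call, AAT1 for Pol II and AAT1, GDH3, SER3 and SER33 for Nab3 changed sign between the time-courses at 20 min.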
